A study of Mus musculus with 26 samples.

Results

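The immediate early genes are 10 genes of the mouse thalamic count table that were taken by name: Fos, Fosb, Jun, Junb, Egr1, Npas4, Nr4a1, Arc, Dusp1 and Ier2. They are 10 of the 36589 genes measured, and the rule that names them uses no expression value, although they were proposed with earlier results of these data known. Thalamic neurons of male mice aged 64 to 112 days had been marked by a fluorescent retrograde label, which is taken up by axons in the cortex and moves to the cell body, and so could be assigned to the cortical system they project to. Slices of 200 to 300 µm were held for 1 hour in artificial cerebrospinal fluid with pronases and with agents that block neural activity, and the fluorescent neurons were then picked manually, per the labels' protocols. The groups are auditory neurons (5 sums, 380 cells), motor neurons (5 sums, 484 cells), prefrontal neurons (4 sums, 388 cells), somatosensory neurons (3 sums, 285 cells) and visual neurons (4 sums, 435 cells). A sum is all cells of 1 animal and 1 system, 1972 cells in all. Every group had the same slicing, enzyme and blockers, so the data hold no stimulated animals and no slices without blockers. Strain, genotype and the kind of retrograde label are not given in the sources used here.

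Immediate early genes are transcribed within minutes of a stimulus, without new protein being made first. In neurons, calcium entry during activity acts through kinases on transcription factors such as CREB and SRF, which are already present at the promoters of these genes. Most of the encoded proteins are themselves transcription factors that switch on a later set of genes, and several members are also known to be induced by tissue handling and by enzymes used for dissociation.

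Transcripts were counted by UMIs, the random tags that tell apart copies made by PCR from separate RNA molecules, at the 3' end of the RNA, on 26 plates in 3 sequencing batches. A cell held 20509 to 683775 UMIs and a sum 4317156 to 20322775. Somatosensory neurons came from batch 2 alone and visual neurons from batch 3 alone, and each of the 13 sort dates except 1 held a single system. Of the cells, 99.6% had a UMI of Slc17a6, the glutamate transporter of thalamic relay neurons, and 99.9% of Tcf7l2, a thalamic transcription factor, against 1.47% with Gad2, a marker of GABA neurons. Of 375 cell barcode sequences, 372 were used on more than 1 plate, but 0 pairs of cells had identical counts. The summed level of 6 GABA neuron markers was 40.8 to 83.8 CPM (counts scaled to a total of 1000000 UMIs per sum) in auditory sums and 0.126 to 19 CPM in the others, with Slc32a1 and Dlx5 at 0 in auditory neurons. The 10 oligodendrocyte markers summed to 25 to 463 CPM, the 10 microglia markers to 119 to 193 CPM, the 10 astrocyte markers to 19.4 to 197 CPM and the 8 endothelial or mural markers to 1.05 to 5.71 CPM.

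All 10 members were detected, and no member was silent in a whole system. Jun had a UMI in 69.3% of the cells, Egr1 in 51.5%, Dusp1 in 49.6%, Ier2 in 41.3%, Fos in 30.6%, Junb in 20.5%, Nr4a1 in 17.2%, Npas4 in 13.3%, Arc in 11.5% and Fosb in 6.64%. A cell held a median of 3 members, 82 cells held none and 1 cell held all 10. With every cell thinned to 20000 UMIs, 89.8% of cells held at least 1 member, and 95.8% did at full depth. Among the cells that held a member, the tenth with the highest level carried 24.4% of its UMIs for Ier2 (82 of 814 cells), 28.5% for Jun (137 of 1367 cells), 36.3% for Fos (61 of 603 cells) and 37.4% for Junb (41 of 404 cells), with the others in between. The largest level in 1 cell was 4974 CPM for Fos. Across the 1972 cells the 45 pairs of members had Spearman correlations of -0.04 to 0.20, with the highest for Jun and Dusp1 and for Fos and Dusp1 (0.19). These are descriptions of sparse counts that share each cell's depth.

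**Figure D1:**
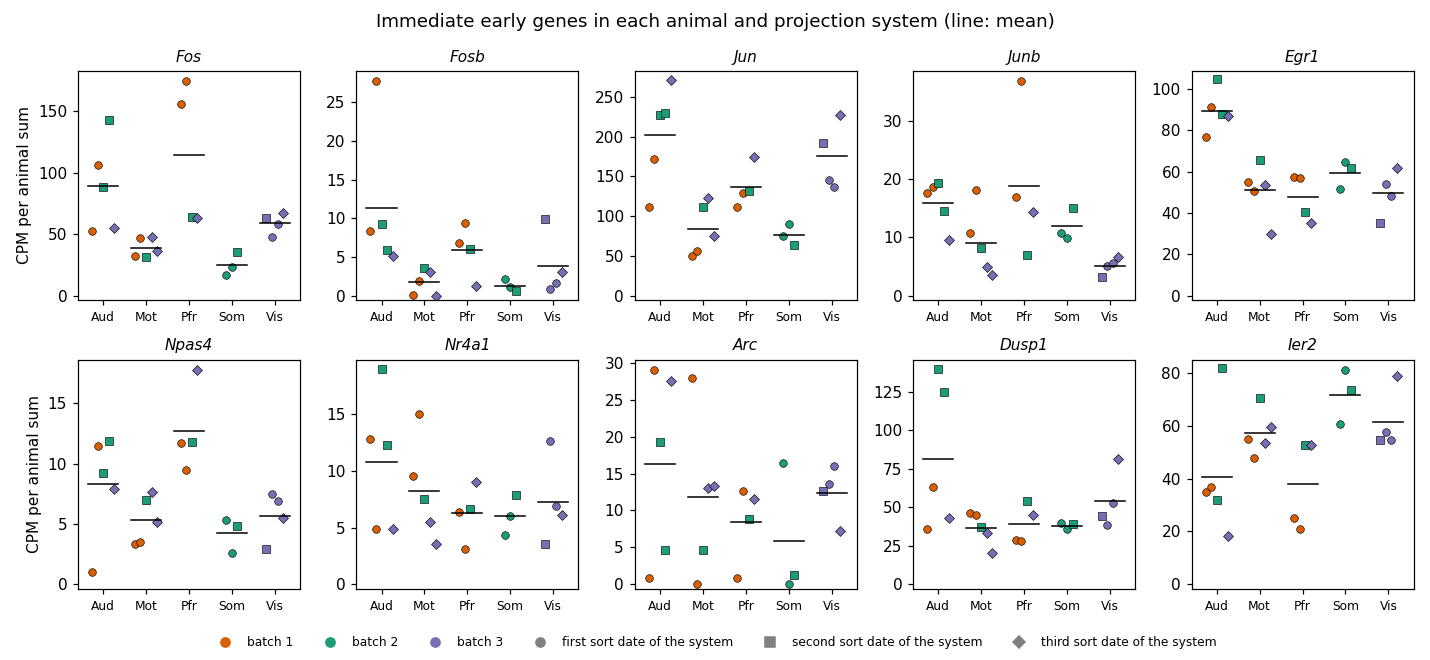
Level of each member in every sum (CPM, linear axis from 0; Aud auditory, Mot motor, Pfr prefrontal, Som somatosensory, Vis visual; n = 5, 5, 4, 3 and 4), coloured by sequencing batch, with the marker showing the sort date within a system and the line the mean. Egr1 was between 76.8 and 105 CPM in auditory sums, above all other sums, whereas Fos in prefrontal sums split by sort date.

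In the test among the 5 systems, 4 of 10 members passed, and 12.6% of the 17211 genes tested did. The members that passed were Jun (adjusted p = 7.59e-05), Fos (0.00331), Egr1 (0.0152) and Dusp1 (0.0196), by edgeR's quasi-likelihood test on the sums with batch in the model and Benjamini-Hochberg adjustment over all genes. Npas4 (0.117), Ier2 (0.154), Fosb (0.21), Junb (0.209), Nr4a1 (0.717) and Arc (0.963) did not pass. Animals of a system share sort dates, and with 1 sum per date and system Fos (0.051), Egr1 (0.056) and Dusp1 (0.16) missed the threshold, while Jun passed. Each system was then set against the mean of the other 4, which gave 5 calls in 50 pairs of member and system. Auditory neurons had 2 members called higher and 0 lower, against 7.97% of all genes (4.28% higher and 3.69% lower). Motor neurons had 1 member called lower and 0 higher, against 3.91% (1.59% lower and 2.32% higher). Prefrontal neurons had 2 members called higher and 0 lower, against 9.17% (5.19% higher and 3.97% lower). Somatosensory and visual neurons had 0 members called, where 0.232% and 0.145% of all genes were called. By unadjusted p under 0.05 in the same edgeR fit there were 3 members in somatosensory and 1 in visual neurons, where 8.65% and 7.61% of all genes had one, and DESeq2 called 2 and 0 members, and 1.57% and 1.09% of genes. The median log2 fold change of the 10 members was 0.67 in auditory neurons (-0.01 over all genes tested), -0.28 in motor neurons (0.01), 0.06 in prefrontal neurons (0.02), -0.85 in somatosensory neurons (-0.01) and 0.35 in visual neurons (0.03).

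**Figure D2:**
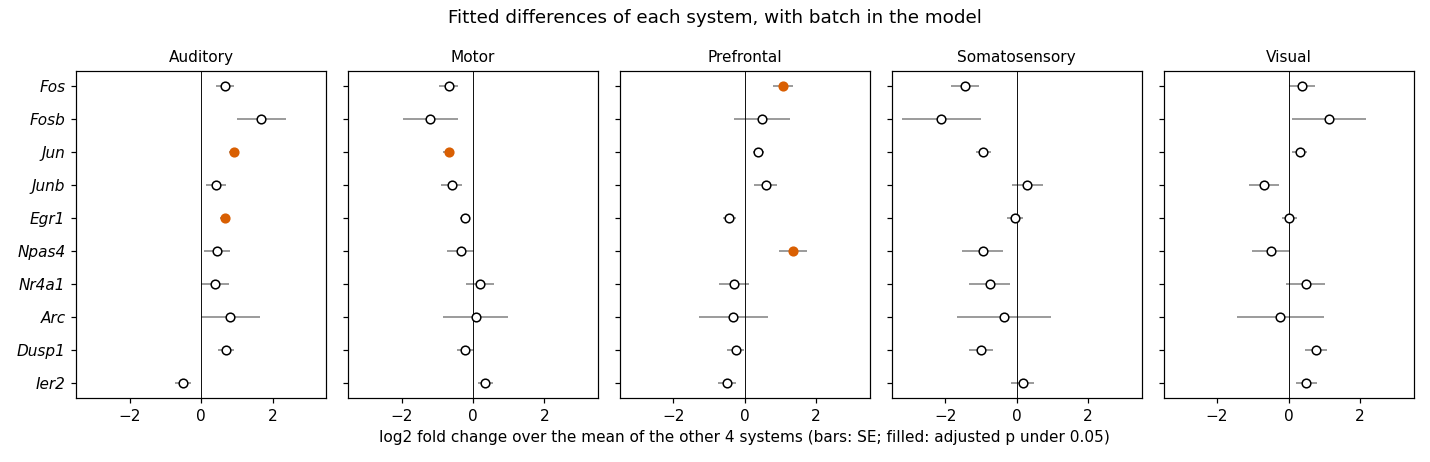
Fitted log2 fold change of each member in 1 system over the mean of the other 4 systems, with its standard error (x axis) and the member on the y axis; filled points passed an adjusted p of 0.05. The 5 filled points are Jun (0.92) and Egr1 (0.67) in auditory, Jun (-0.68) in motor, and Fos (1.08) and Npas4 (1.34) in prefrontal neurons.

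Jun, whose protein is the main partner of Fos proteins in the AP-1 transcription factor, differed most clearly between systems. Jun had 111, 172, 227, 230 and 272 CPM in auditory sums 1 to 5, against 49.2 to 227 CPM (median 118) in the 16 other sums. The 2 highest of all 21 sums were auditory, but 9 of the 16 other sums lay above the lowest auditory one. The log2 fold change was 0.92 ± 0.14 (SE; adjusted p = 0.000248, edgeR's quasi-likelihood test). Within batches, auditory and other sums averaged 141 against 86.4 CPM in batch 1, 228 against 94.6 CPM in batch 2 and 272 against 154 CPM in batch 3. The call held without any 1 of the 21 sums, at 0.83 to 1.00, and missed the threshold within batch 1 alone (0.80, adjusted p = 0.19) and within batch 3 alone, which held 1 auditory sum (0.89, 0.15).

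Jun was lower in motor neurons. The 5 motor sums had 49.2, 56.7, 112, 123 and 75.5 CPM, against 63.7 to 272 CPM (median 141) in the 16 others. The groups overlapped, and the 2 motor sums of batch 1 were below all other sums. The log2 fold change was -0.68 ± 0.15 (adjusted p = 0.0113, edgeR), and it missed the threshold without motor replicate 5 (-0.58 at an adjusted p of 0.057) and within batch 2, which held 1 motor sum (112 CPM, against a mean of 136 CPM in the other 6). It also missed it without batch 1 (0.19), without batch 3 (0.17), with 1 sum per sort date (0.083) and with no batch term (0.055). In somatosensory neurons Jun had 75.3, 90.0 and 63.7 CPM, all under the median of 134 CPM of the 18 other sums. Its log2 fold change of -0.93 ± 0.22 did not pass by edgeR (adjusted p = 0.0888) and passed by DESeq2 (-0.94, adjusted p = 0.0036). The share of spike-in RNA among all UMIs ranged highest in auditory and visual and lowest in somatosensory sums, as did mean Jun, with overlap between systems. It was 7.95% to 10.2% in auditory and 7.31% to 9.76% in visual sums. In prefrontal sums it was 4.79% to 8.45%, in motor sums 5.05% to 7.02% and in somatosensory sums 3.54% to 4.96%. Among auditory sums 1 to 5 it was 10.1%, 8.42%, 9.18%, 7.95% and 10.2%, with Jun at 111, 172, 227, 230 and 272 CPM. The summed GABA neuron markers were also highest in auditory sums, as given above. The part of either in the Jun result was not tested.

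Fos, which binds DNA as a dimer with a Jun protein and is the most used marker of recently active neurons, was higher in prefrontal neurons. Its levels were 156, 175, 64.2 and 63.3 CPM in prefrontal sums 1 to 4, against 16.5 to 143 CPM (median 47.4) in the 17 other sums. The 2 prefrontal sums above all others were the 2 animals of sort date 1, and the remaining 2 lay inside the range of the other systems. The log2 fold change was 1.08 ± 0.28 (adjusted p = 0.015, edgeR). Within batches, prefrontal and other sums averaged 165 against 59.3 CPM in batch 1, 64.2 against 56.4 CPM in batch 2 and 63.3 against 53.5 CPM in batch 3. Without batch 1 the log2 fold change was 0.38 (adjusted p = 0.63), and without prefrontal replicate 2 it was 0.89 (0.068). With 1 sum per sort date it was 0.81 (0.087). Batches 2 and 3 held 1 prefrontal sum each, and within them alone it was 0.49 and 0.28 and did not pass.

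Fos differed between the authors' clusters, which divide each system's neurons by their transcriptomes. Prefrontal cluster 3 was made only of cells of sort date 1, where it held 81.2% and 82.4% of the cells of animals 1 and 2, and 0 cells of animals 3 and 4. Fos was at 178 and 202 CPM in the cluster 3 cells of animals 1 and 2. In animal 3, sorted on another date, it was at 0.378 CPM in 31 cells of cluster 1, 65.8 CPM in 94 cells of cluster 2 and 128 CPM in 45 cells of cluster 4. In animal 4 it was at 79.6 CPM in cluster 2 and 56.3 CPM in cluster 4. The animals of sort date 1 also had 12 and 13 cells in other clusters, where Fos was at 19.1 and 43.8 CPM. Batch 1 also held auditory sums at 52.4 and 106 CPM and motor sums at 32 and 46.5 CPM. No other date held cells of cluster 3, so the cluster and the date cannot be told apart in those cells. Of the Fos UMIs of sums 1 to 4, the single highest cell held 16.5%, 23.2%, 9.04% and 16.4%, and without that cell the levels were 133, 138, 58.8 and 54.0 CPM. The 10 oligodendrocyte markers summed to 49.4 to 115 CPM in prefrontal sums, where 5 of them were called lower. The Fos call held without the 85 cells that had 3 or more markers of another cell type, oligodendrocyte markers in 69 of them. The part of these markers in the remaining cells was not tested.

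For Fos, the other systems ordered as auditory (mean 89.0 ± 38.0 CPM, SD, n = 5), visual (59.2 ± 8.67, n = 4), motor (38.6 ± 7.75, n = 5) and somatosensory (25.1 ± 9.78, n = 3). The motor and somatosensory ranges overlapped, at 31.3 to 47.3 and 16.5 to 35.8 CPM, as did the auditory and visual ranges. In auditory neurons, Fos passed by DESeq2 (log2 fold change 0.68, adjusted p = 0.041) and not by edgeR (0.66 ± 0.25, adjusted p = 0.113). In somatosensory neurons, Fos had a log2 fold change of -1.45 ± 0.39 that missed the threshold by edgeR (adjusted p = 0.142) and passed by DESeq2 (-1.47, adjusted p = 0.006).

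Fosb, a Fos relative that accumulates as a truncated form under repeated stimulation, was sparse. It averaged 11.3 ± 9.36 CPM in auditory sums (n = 5) and 1.29 to 5.87 CPM in the other systems, and it was at 0 in motor replicate 5. The auditory range of 5.10 to 27.7 CPM overlapped with those of prefrontal sums, 1.19 to 9.44 CPM, and visual sums, 0.818 to 9.92 CPM. In some sums 1 cell held most of the UMIs, with 89.1% of the Fosb UMIs of prefrontal replicate 1 and 100% of those of visual replicate 3. Junb, a Jun relative that forms AP-1 with weaker activity, was highest in prefrontal replicate 2 (37.0 CPM) and lowest in visual replicate 1 (3.13 CPM). Neither gene passed among systems.

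Junb and Jun moved in opposite directions between sequencing batches. In the test among the 3 batches, 2 of 10 members passed (Jun, adjusted p = 0.0119, and Junb, 0.0355, edgeR), and 11.6% of all genes did. Jun averaged 168 ± 62.1 CPM in batch 3 (n = 8), 133 ± 69.0 in batch 2 (n = 7) and 105 ± 46.0 in batch 1 (n = 6). Its log2 fold change was 0.75 ± 0.18 in batch 3 over batch 1 (adjusted p = 0.0073, 9.35% of genes called) and 0.59 ± 0.18 in batch 2 over batch 1. Junb averaged 6.60 ± 3.72, 12.1 ± 4.42 and 19.9 ± 8.85 CPM in batches 3, 2 and 1, and its log2 fold change in batch 3 over batch 1 was -1.31 ± 0.36 (adjusted p = 0.0219). The batch means mix systems, with somatosensory sums only in batch 2 and visual sums only in batch 3. Prefrontal Junb was 27, 6.94 and 14.4 CPM in batches 1, 2 and 3. Motor Junb was 14.5, 8.16 and 4.23 CPM, and auditory Junb 18.2, 17 and 9.5 CPM. Prefrontal Jun was 120, 132 and 175 CPM, motor Jun 53, 112 and 99.4 CPM and auditory Jun 141, 228 and 272 CPM. Each value is from 1 or 2 sums. Jun rose and Junb fell from batch 1 to 3 in each, but prefrontal Junb and motor Jun not steadily. Between batches 3 and 2, 0 members passed and 0.116% of genes did; 1 member had an unadjusted p under 0.05 in this edgeR comparison, as did 9.12% of genes. With 1 sum per sort date and system neither Jun (0.072) nor Junb (0.12) passed. Junb also missed the threshold with no filter on low counts (0.052), by limma on the mean CPM per cell (0.12) and without plates 5, 8, 21 and 26 (0.11). Jun missed the threshold without motor replicate 1 (0.053). Junb missed it without auditory replicate 5 (0.065), motor replicates 2 (0.11), 4 (0.075) or 5 (0.094) or prefrontal replicate 2 (0.12). Cells were deepest in batch 1, with median UMIs of 94236 to 215798 per sum, against 52422 to 83757 in batch 3. Animals were 91 to 112 days old in batch 1, 64 to 81 in batch 2 and 69 to 104 in batch 3. In visual neurons, all of batch 3, Jun was at 141, 192 and 227 CPM at 104, 91 and 69 days. In somatosensory neurons, all of batch 2, it was at 63.7 CPM at 78 days and 82.6 CPM at 64 days. The parts of depth and age were not tested.

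Egr1, a zinc finger transcription factor much used as an activity marker, was higher in auditory neurons, with groups that did not overlap. It had 76.8, 91.2, 105, 87.6 and 86.9 CPM in auditory sums 1 to 5, against 29.9 to 65.6 CPM (median 53.6) in the 16 others. The lowest auditory sum thus lay above the highest sum of any other system, and this was so in all 3 batches, with 84.0 against 54.9 CPM in batch 1, 96.2 against 56.8 CPM in batch 2 and 86.9 against 45.3 CPM in batch 3. No other member lay apart in this way in any system. How many of all genes lie apart like this in auditory neurons was not counted, so the separation is a description. The log2 fold change of Egr1 was 0.67 ± 0.14 (adjusted p = 0.00497, edgeR). It missed the threshold without auditory replicate 5 (0.53, adjusted p = 0.093), without batch 2 (0.69, adjusted p = 0.075) and within batch 1, 2 or 3 alone, where the log2 fold change was 0.59, 0.77 and 1.04 from 2, 2 and 1 auditory sums. The Egr1 test among systems also missed it in these cases, without batch 1 (0.05) or 3 (0.062) and without the 20 cells that carry a flag in the authors' table (0.051). The authors' auditory clusters shared the high level, with 105 CPM in cluster 3, 81.7 CPM in cluster 1 and 77.0 CPM in cluster 2, but 2 clusters of other systems, motor 2 (86.1 CPM) and somatosensory 2 (80.5 CPM), reached similar levels. The share of cells with an Egr1 UMI, at 20000 UMIs per cell, was 41.7% ± 5.69 in auditory sums and 45.2% ± 7.66 in somatosensory sums, so auditory neurons were not highest in this measure.

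Npas4, a transcription factor induced by calcium entry and little by other stimuli, was higher in prefrontal neurons. It had 11.7, 9.51, 11.8 and 17.8 CPM in prefrontal sums 1 to 4, against 1.03 to 11.9 CPM (median 5.52) in the 17 other sums. Only 2 of those 17, both auditory, were above the lowest prefrontal sum. The prefrontal means were above those of the other sums in all 3 batches: 10.6 against 4.86 CPM in batch 1, 11.8 against 6.80 CPM in batch 2 and 17.8 against 6.21 CPM in batch 3. The log2 fold change was 1.34 ± 0.39 (adjusted p = 0.0316, edgeR), and it was 1.19 to 1.66 with 1 sum left out and 0.77 to 1.42 over the other alternatives. The call was lost without batch 1 (0.12), 2 (0.14) or 3 (0.24), within each batch alone (2, 1 and 1 prefrontal sums), with no batch term (0.062), without cells of other types (0.087), without plates 5, 8, 21 and 26 (0.09) and by limma on the mean CPM per cell (0.052). It also missed the threshold without any 1 of the 4 prefrontal sums (0.084, 0.066, 0.062 and 0.17 without replicates 1 to 4), motor replicates 1 (0.054) or 2 (0.051) or somatosensory replicate 2 (0.055). In prefrontal cluster 1 it was at 0.405 CPM, against 17.6, 12 and 12.6 CPM in clusters 2, 3 and 4.

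The start regions of the 2 members called in prefrontal neurons and of Jun, called in auditory and motor neurons, are shown because the first 2 hold copies of TGACG, the short form of the site bound by CREB, and the third holds none. Each runs from 250 bases before to 50 after the annotated start (RefSeq, GRCm38.p6), 5′ to 3′ on the gene's strand. Fos lies at chr12:85473640-85473939 on the plus strand, Npas4 at chr19:4989922-4990221 on the minus strand and Jun at chr4:95052173-95052472 on the minus strand. Capitals mark TGACG, or CGTCA where the match is on the other strand.
Fos: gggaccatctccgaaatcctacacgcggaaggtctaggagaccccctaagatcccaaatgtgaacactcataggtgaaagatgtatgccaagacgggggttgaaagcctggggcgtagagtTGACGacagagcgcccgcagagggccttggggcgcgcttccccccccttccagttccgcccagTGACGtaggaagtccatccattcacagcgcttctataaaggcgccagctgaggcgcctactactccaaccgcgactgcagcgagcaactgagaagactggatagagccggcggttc
Npas4: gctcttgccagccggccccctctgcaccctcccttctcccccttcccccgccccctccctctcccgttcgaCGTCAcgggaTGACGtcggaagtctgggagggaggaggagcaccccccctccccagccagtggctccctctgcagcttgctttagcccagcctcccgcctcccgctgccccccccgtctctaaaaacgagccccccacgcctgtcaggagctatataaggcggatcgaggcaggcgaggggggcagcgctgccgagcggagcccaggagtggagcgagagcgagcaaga
Jun: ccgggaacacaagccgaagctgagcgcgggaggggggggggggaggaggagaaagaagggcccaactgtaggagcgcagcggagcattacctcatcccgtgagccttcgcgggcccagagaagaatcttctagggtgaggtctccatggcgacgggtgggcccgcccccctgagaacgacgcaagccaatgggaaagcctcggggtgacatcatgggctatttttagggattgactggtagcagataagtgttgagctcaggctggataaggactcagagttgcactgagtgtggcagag
The Fos matches begin 129 and 66 bases before the start, and those of Npas4 179 and 169 bases before it. Of 7 members with a promoter in the reference table, 6 hold TGACG on either strand, and 20.8% of all 32851 promoters do. The 6 include Fosb, Junb, Nr4a1 and Dusp1, which were not called in prefrontal neurons. Egr1, Arc and Ier2 had no promoter there. The full 8-base site TGACGTCA is in 1.79% of promoters and, of the 7, in Dusp1 alone; it reads the same on both strands, so it counts as overlapping TGACG matches. The matches are letters in this window and were not tested as sites. Only exact letters were counted, so near forms such as tgacatca in the Jun region are not among the matches.

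Nr4a1, an orphan nuclear receptor, differed little. It averaged 10.8 ± 5.99 CPM in auditory (n = 5), 8.21 ± 4.40 in motor (n = 5), 7.27 ± 3.83 in visual (n = 4), 6.25 ± 2.43 in prefrontal (n = 4) and 6.06 ± 1.76 CPM in somatosensory sums (n = 3). The ranges of all 5 systems overlapped. Of the Nr4a1 UMIs of prefrontal replicate 1, 90.7% came from 1 cell.

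Dusp1, a phosphatase that switches off the MAP kinases which induce other members, varied with system and with sort date. It had 35.7, 63.0, 140, 125 and 43.1 CPM in auditory sums 1 to 5, against 20.1 to 81.2 CPM (median 39.4) in the 16 others. The 2 auditory sums above all others were the animals of sort date 8. Dusp1 passed among systems, but its auditory log2 fold change of 0.70 ± 0.22 missed the threshold (adjusted p = 0.0553, edgeR) and passed by DESeq2 (0.71, adjusted p = 0.017), which called 10.7% of genes there. Within batches auditory and other sums averaged 49.4 against 37.0 CPM (batch 1), 132 against 41.2 CPM (batch 2) and 43.1 against 45.0 CPM (batch 3). The test among systems missed the threshold without auditory replicate 3 (0.092) or 4 (0.068), without batch 2 (0.39), within batch 1 or batch 3 alone and with no batch term (0.069).

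Sort dates were compared within systems, with the animals of a date giving the spread. Dusp1 was the 1 member of 10 that passed, at an adjusted p of 0.0495 (edgeR, 9 differences among 14 groups of system and date, 7 residual degrees of freedom), and 2.65% of the 20601 genes tested did. It lay at 132 CPM on date 8, 49.4 CPM on date 2 and 43.1 CPM on date 10 in auditory neurons. In visual neurons, all of batch 3, it lay at 81.2 CPM on date 13, 44.3 on date 12 and 45.6 on date 11. Dates 13 and 12 held 1 visual animal each. In auditory, motor and prefrontal neurons each date fell in a different batch and had its own age. Auditory dates 2, 8 and 10 were batches 1, 2 and 3, at 104, 81 and 70 days. Date, batch and age cannot be told apart in these systems. The call was lost without any of 13 of the 21 sums (adjusted p of 0.052 to 0.19), with the largest value without auditory replicate 3. Auditory cluster 1, where Dusp1 was highest of the 17 clusters (138 CPM, against 61.6 in cluster 2 and 23.6 in cluster 3), made up 36.9% and 55.6% of the cells of the 2 animals of date 8, and 8.22%, 16% and 16.7% of the others. Within cluster 1, Dusp1 was at 212 and 180 CPM in the date 8 animals, and at 51.9 and 67.8 CPM in auditory replicates 2 and 5. Within cluster 2, Dusp1 was at 122 and 78.8 CPM in the date 8 animals, and at 30.0, 67.8 and 57.1 CPM in the other 3. Within cluster 3, it was at 41.9 and 16.6 CPM in the date 8 animals and at 15.7 CPM in replicate 5. Animals with under 10 cells in a cluster were left out of these values. Fos (adjusted p = 0.185) and Jun (0.0959) did not pass among dates.

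The Dusp1 start region (RefSeq, GRCm38.p6, chr17:26508423-26508722, minus strand, 5′ to 3′) is shown because it holds the full 8-base site TGACGTCA, 143 bases before the start, with TGACG in capitals as above.
Dusp1: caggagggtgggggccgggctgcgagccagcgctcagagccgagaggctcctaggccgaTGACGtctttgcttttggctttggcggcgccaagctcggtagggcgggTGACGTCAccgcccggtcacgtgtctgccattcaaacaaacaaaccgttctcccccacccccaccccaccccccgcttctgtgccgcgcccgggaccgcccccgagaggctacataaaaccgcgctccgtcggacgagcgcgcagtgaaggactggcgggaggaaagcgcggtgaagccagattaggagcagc

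Ier2, a small nuclear protein induced by growth factors, had its highest mean in somatosensory neurons. It averaged 71.7 ± 10.2 CPM in somatosensory (n = 3), 61.5 ± 11.8 in visual (n = 4), 57.3 ± 8.51 in motor (n = 5), 40.7 ± 24.2 in auditory (n = 5) and 37.9 ± 17.2 CPM in prefrontal sums (n = 4). These means did not differ past the threshold (adjusted p = 0.154, edgeR). In prefrontal neurons the sums were 25.1 and 21.1 CPM on sort date 1, and 52.6 and 52.9 CPM on the other dates, whereas Fos was highest on date 1. In auditory cluster 3 it was at 11.1, 11 and 11.9 CPM in 3 animals of 2 sort dates, under the 21.3, 90.3 and 23.2 CPM of cluster 2 in the same animals.

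**Figure D3:**
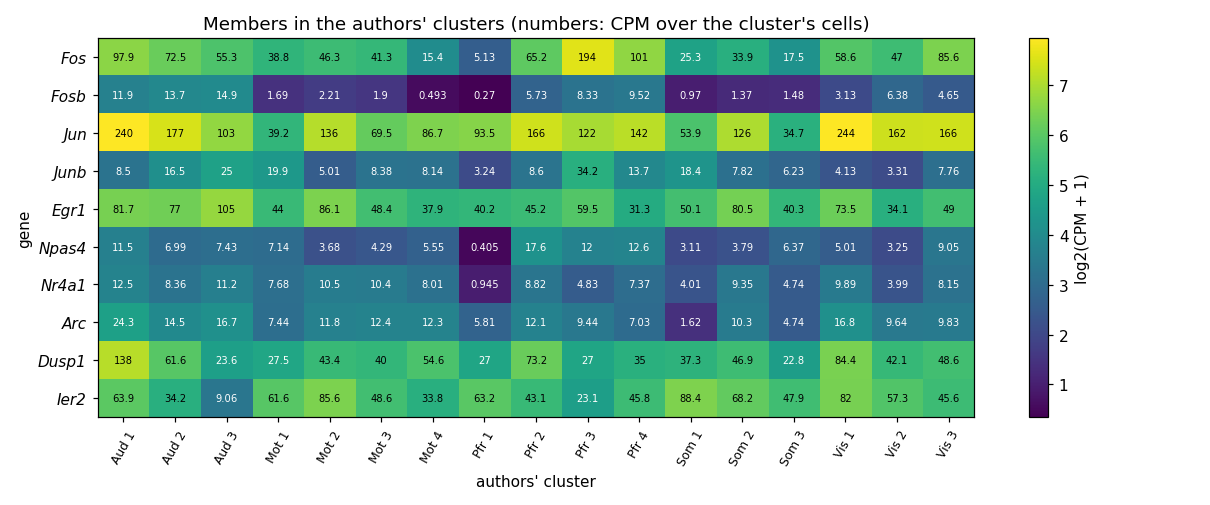
Level of each member (y axis) in the 17 clusters of the authors (x axis), with CPM over all cells of the cluster as numbers and log2(CPM + 1) as colour. Fos ran from 5.13 CPM in prefrontal cluster 1 to 194 CPM in prefrontal cluster 3, and Ier2 from 9.06 CPM in auditory cluster 3 to 88.4 CPM in somatosensory cluster 1.

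Across the clusters, prefrontal cluster 1 was the lowest of 17 for Fos (5.13 CPM), Fosb (0.27), Junb (3.24), Npas4 (0.405) and Nr4a1 (0.945), but not for Jun, at 93.5 CPM, or Ier2, at 63.2 CPM. With the cells of all animals in 1 total, auditory cluster 1 was the highest for Dusp1 (138 CPM), Nr4a1 (12.5 CPM) and Arc (24.3 CPM), and visual cluster 1 for Jun (244 CPM). With each animal of 10 or more cells given equal weight, auditory cluster 1 was still the highest for Dusp1 (128 CPM, 4 animals). However, Jun was then highest in auditory cluster 1 (279 CPM, against 243 CPM in visual cluster 1). Nr4a1 was highest in visual cluster 1 (16.2 CPM, against 9.50 CPM in auditory cluster 1). That Nr4a1 mean rests on 42.8 CPM in 14 cells of visual replicate 2, with 3.22 and 2.67 CPM in replicates 1 and 4. Without plates 5, 8, 21 and 26 Arc was at 5.98 CPM in auditory cluster 1 and was highest in auditory cluster 3, at 17.3 CPM. Somatosensory cluster 3 was the lowest for Jun (34.7 CPM) and Dusp1 (22.8 CPM). Clusters were made from the same counts, so these values are a description, and only 1 animal had 10 or more cells in prefrontal cluster 1.

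Arc, which encodes a protein of active synapses that shuttles receptors and packages RNA, differed between plates. On plates 5, 8, 21 and 26 it was at 66, 49.6, 57.1 and 62.5 CPM, against 0 to 5.52 CPM (median 1.61) on the other 22 plates. These 4 plates held 285 of the 1972 cells and 85.7% of all Arc UMIs. A UMI of Arc was found in 63.8%, 62.5%, 58.8% and 51.0% of the cells of plates 5, 8, 21 and 26, against 3.38% of the cells on the other plates. At 20000 UMIs per cell the shares were 40.7% on the 4 plates and 2.31% on the others, with ranges of 37.7% to 49.0% and 0% to 6.58% that did not overlap. The 4 plates were chosen after their Arc values were seen.

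**Figure D4:**
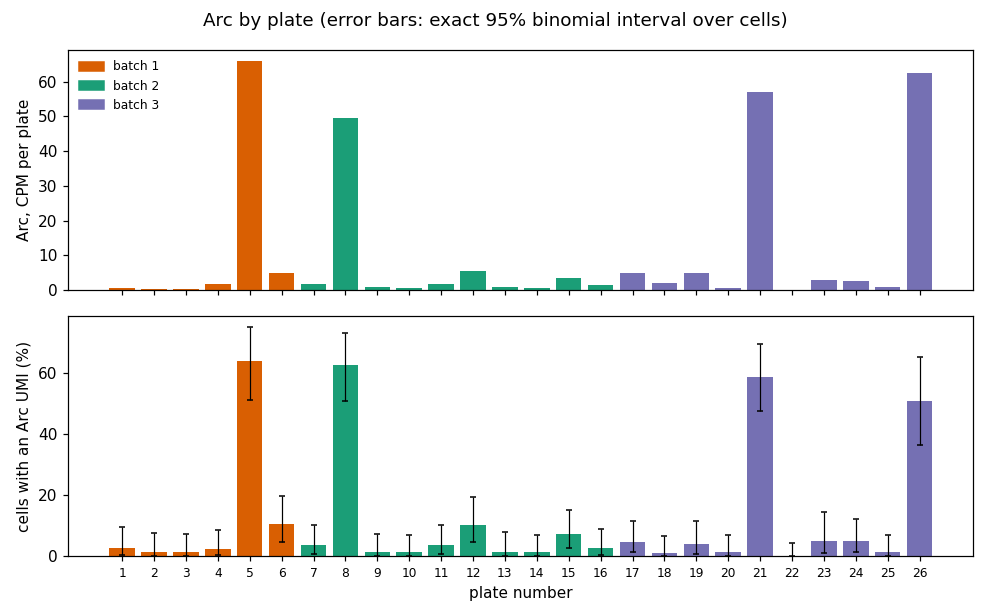
Arc on each of the 26 plates (x axis), as CPM of the plate (upper panel) and as the share of cells with at least 1 Arc UMI (lower panel, exact 95% binomial intervals that cover counting error only), coloured by sequencing batch. Plates 5, 8, 21 and 26 lay at 49.6 to 66 CPM, and the other 22 at 5.52 CPM or less.

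With animal and system as a block, plates were compared within animals. Arc was the 1 member of 10 that passed, at an adjusted p of 9.73e-06 (edgeR's quasi-likelihood test on 87 sums per animal, system and plate, 45 residual degrees of freedom), and 1.77% of the 19060 genes tested did. Arc ranked 93 by p among the genes of this test, in which the choice of the 4 plates had no part. Of the 21 sums, 15 had cells on the 4 plates, and in all 15 the Arc level was higher there than in the same sum's other cells. The 4 plates were chosen by their Arc level, so this direction is a description and no test. The shares of cells with an Arc UMI were 45.5% to 92.3% on the 4 plates and 0% to 16.1% elsewhere, and the levels 36.4 to 83.9 CPM and 0 to 22.8 CPM. The share differed most in motor replicate 5, where 12 of 13 cells on those plates had an Arc UMI and 0 of 70 cells elsewhere did, a count that allows a share of cells with a UMI of up to 4.29%. The 6 sums with no cell on those plates were at 0 to 4.61 CPM. The 4 plates held cells of all 5 systems, all 3 batches, 12 of the 13 sort dates and 14 animal identifiers.

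**Figure D5:**
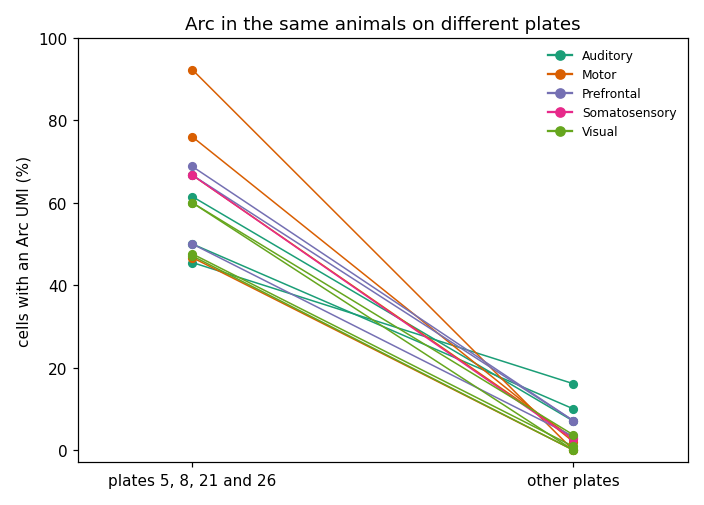
Share of cells with an Arc UMI (y axis) in the 15 sums with cells on plates 5, 8, 21 and 26, on those plates (left) and on the other plates (right), with a line per sum coloured by system. All 15 lines fall, with 45.5% to 92.3% on the 4 plates and 0% to 16.1% on the others. The 4 plates were chosen by their Arc level.

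In the other members and in depth, the ranges of the 4 Arc plates overlapped with those of the other plates. Fos had a UMI in 28.8% of cells on the 4 plates and in 30.9% elsewhere, Egr1 in 51.6% and 51.5%, Jun in 67.7% and 69.6%, and Npas4 in 11.9% and 13.6%. In level, however, Npas4 was at 10.4, 12.2, 12.9 and 2.57 CPM on plates 5, 8, 21 and 26, against 2.39 to 10.8 CPM (median 6.4) on the others, so that plates 8 and 21 were above all of these. The 4 plates held 25.4% of the Npas4 UMIs and 22.3% of the Fosb UMIs. Median UMIs per cell were 43434 to 182100 on the 4 plates and 32705 to 205398 on the others. Among all genes, 4 had a lowest level on these 4 plates above the highest on the other 22. They were Arc, by 2.96 on the log2(CPM + 1) scale, then Fgf4 by 0.15, Gpatch3 by 0.11 and Ranbp1 by 0.05. The plates were chosen by Arc, so its place here was set by that choice, and other genes were not given plates of their own. Arc cells lay in 11 of 11, 12 of 12, 12 of 12 and 11 of 12 strips of wells of plates 5, 8, 21 and 26. Plates 5, 8 and 26 each shared a cDNA synthesis date with a partner plate, and Arc was at 66, 49.6 and 62.5 CPM on them and at 4.78, 1.73 and 0.867 CPM on the partners. A median Arc-positive cell on plates 5, 8, 21 and 26 had 12.5, 6, 6.5 and 4 Arc UMIs. In the test among plates, 5 of the 10 oligodendrocyte markers also passed, and their part in the Arc result was not tested. What set Arc on these plates was not tested.

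Among systems Arc did not pass with all plates, at 16.2 ± 13 CPM in auditory, 12.3 ± 3.73 in visual, 11.8 ± 10.7 in motor, 8.49 ± 5.31 in prefrontal and 5.93 ± 9.22 CPM in somatosensory sums. Without the 4 plates it averaged 8.10 ± 8.53 CPM in auditory, 2.41 ± 1.65 in prefrontal, 1.12 ± 2.05 in visual, 0.525 ± 0.642 in somatosensory and 0.151 ± 0.289 CPM in motor sums. It then passed among systems (adjusted p = 0.035, edgeR) and in auditory neurons, with a log2 fold change of 3.57 (adjusted p = 0.016). The auditory level was highest in replicate 5 (22.8 CPM), and the other 4 auditory sums averaged 4.42 ± 2.60 CPM. Without that sum Arc did not pass among systems (0.25) or in auditory neurons (3.22, 0.22), and the test among systems missed the threshold without any of 10 of the 21 sums. The auditory range of 0.801 to 22.8 CPM still overlapped with those of prefrontal, visual and somatosensory sums, and the fitted fold depends on sums at or near 0.

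Other genes of the same response were read from lists of related genes. Among 31 tested immediate early genes that are not members, 5 passed among systems, a share near the 12.6% of all genes. Rgs2, a brake on G protein signalling, averaged 122 ± 10.7 CPM in auditory neurons and 48.3 to 75.6 CPM in the other systems, a log2 fold change of 1.03 ± 0.12 (adjusted p = 1.63e-05, edgeR). Plk2, a kinase that weakens active synapses, was higher in auditory neurons by 0.55 ± 0.17 on the log2 scale than in the mean of the other systems (adjusted p = 0.0439), at 67.4 ± 18.7 CPM, although visual neurons had the highest mean, 77.7 ± 14.3 CPM. In prefrontal neurons Ier5 (log2 fold change 1.80 ± 0.25, adjusted p = 7.19e-05) and Crem (1.14 ± 0.27, 0.00933), a relative of CREB, were higher, and Ier3 (-1.58 ± 0.33, 0.0031) and Gadd45b (-1.45 ± 0.42, 0.0301) were lower. The 4 of 31 genes called there thus split into 2 higher and 2 lower, where 9.17% of all genes were called (5.19% higher and 3.97% lower). In motor neurons Rgs2 was lower (-0.60 ± 0.13, adjusted p = 0.0105) by edgeR. It was the 1 gene of this list called there, where 3.91% of all genes were called.

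Of 8 later activity-dependent genes, 2 passed among systems, as did 2 of 13 upstream regulators and 1 of 13 heat shock and stress genes, beside 12.6% of all genes, so these counts are no result about the lists. Bdnf, a neurotrophin, averaged 218 ± 25.2 CPM in prefrontal neurons (n = 4), against 83.9 ± 56.7 in auditory, 64.1 ± 14.6 in somatosensory, 44.3 ± 16.5 in motor and 28.0 ± 12.7 CPM in visual neurons, and the prefrontal sums lay above all others (191 to 243 CPM, against at most 177 CPM). Its prefrontal log2 fold change was 2.30 ± 0.28 (adjusted p = 1.53e-05, edgeR), and that in visual neurons was -2.02 ± 0.40 (0.0402). Vgf, a neuropeptide precursor, was the other gene of the list called in prefrontal neurons and was lower (-0.61 ± 0.17, 0.0288). Scg2, a precursor of secreted neuropeptides, averaged 2066 ± 193 CPM in auditory neurons and 538 to 867 CPM elsewhere (log2 fold change 1.65 ± 0.12, adjusted p = 6.75e-08) and was lower in motor neurons (-0.68 ± 0.14, 0.00586). The upstream regulators that passed were Camk4 and Mef2c. Camk4, a calcium-dependent kinase that acts on CREB, was lower in prefrontal (-0.56 ± 0.12, adjusted p = 0.00332) and auditory neurons (-0.38 ± 0.11, 0.0331) and higher in motor neurons (0.48 ± 0.10, 0.00748). Crtc1, a coactivator of CREB, was higher in prefrontal neurons (0.57 ± 0.17, 0.0436). Hsph1, the stress gene that passed, was lower in prefrontal neurons (-0.55 ± 0.10, adjusted p = 0.00148, edgeR), and Hspe1 was lower in auditory neurons (-0.55 ± 0.14, 0.015).

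The 5 genes whose deviations from their system mean followed the mean of the members most closely over the 21 sums were Arih1 (Pearson r = 0.77), Brix1 (0.76), Rundc3a (0.75), Edem1 (0.75) and Cbl (0.74), taken from all genes with at least 10 CPM. Of the members, Dusp1 had r = 0.77 with the same mean and Arc 0.04. The sums share libraries and depth, so these values are a description.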

How the data were processed

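The authors deposited raw counts (UMIs of each gene in each cell, not normalized), and a table of each cell's plate, animal, sort date, system and cluster; tools were cutadapt 1.16, Picard 1.12 and STAR 2.5.3, per the submitters' processing notes, on build mm10. Neither the annotation nor the counting rule is named in these sources, and overlapping or antisense genes may share UMIs. The cell table puts a flag on 20 cells, whose meaning the sources used here do not give.

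Cells are not replicates, so counts were summed per animal and system (at least 10 cells), 21 sums. Animals within a system often share a sort date, and 1 of the 20 animal identifiers appears in 2 systems (auditory replicate 5 and visual replicate 1) with different sort dates and ages, so it may not be 1 animal; these were kept as separate sums. Sums were fitted with edgeR 4.0.16 (R 4.3.3): TMM, filterByExpr, trended dispersion, quasi-likelihood F-tests and Benjamini-Hochberg adjustment over all genes at 0.05. Systems were compared with batch as covariate (14 residual degrees of freedom), dates without it, and plates with animal and system as a block on sums of at least 10 cells, the dispersion trend taken from every 20th gene by abundance. The scripts were tested on simulated data. CPM are counts scaled to the total of a sum or plate; SD is over sums.

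No doublet caller was run on these hand-sorted cells; an alternative left out 85 cells with 3 or more markers of another cell type. Intervals and limits for counts of 0 (3 counts) cover counting error only. Promoters came from RefSeq. Alternatives used limma 3.58.1 and DESeq2 1.42.0, other size factors, filters and sums, and left out each sum, each batch and, chosen after seeing the data, plates 5, 8, 21 and 26. The members and lists were chosen with earlier results of these data known. Named genes are the members, genes of the lists, and the 5 genes closest to the members.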

Additional observations from a re-analysis of the deposited data

Results flagged for a closer look

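In 40 groups of 4 or 5 sums, 1 for each member and system, 2 sums lay apart from the rest by Dixon's test at the 95% level, which chance gives in about 1 of 20 groups. Fosb in auditory replicate 2 was at 27.7 CPM, against 5.10 to 9.24 CPM in the other 4 auditory sums, and its highest cell held 19.7% of its 356 UMIs. Ier2 in visual replicate 4 was at 79.0 CPM, against 54.6 to 57.7 CPM in the other 3 visual sums, and its highest cell held 10.0% of its 659 UMIs.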

How the results depend on the processing

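No paired analysis was possible because the replicate numbers only name the sums of systems, batches and dates; plates were compared within animals, with animal and system as a block. Among systems, 4 members passed, and 3 to 5 when any 1 sum was left out. The number was 1 per sort date (1 sum for each date and system). It was 1 within batch 1 alone, 2 without batch 2 and 1 within batch 3 alone. In limma-voom with sort date as a random block it was 7 (fitted correlation -0.14). That correlation is negative, so the random block makes no allowance for what animals of a date share. Of the 50 pairs of member and system, 5 passed, and 3 to 7 with 1 sum left out. It was 12 with no filter on low counts, 3 per sort date, 3 within batch 1 alone (30 pairs), 2 within batch 3 alone (40 pairs), 11 with the random block and 9 by DESeq2, which gave no adjusted p for Arc. Among sort dates 1 member passed, and 0 to 2 with 1 sum left out. It was 4 with no filter and 0 by RLE size factors, 1 dispersion for all genes, without cells of other types, without plates 5, 8, 21 and 26, and by limma on the mean CPM per cell, where 5, 5, 4, 3 and 2 members had an unadjusted p under 0.05. For run time, the fits for dates that left out 1 sum kept the dispersion trend of all sums. Among batches 2 members passed, and 1 to 3 with 1 sum left out. It was 1 without those 4 plates, 1 by limma, and 0 per sort date, without batch 1 and without batch 3, where 2, 1 and 4 had an unadjusted p under 0.05. The share of cells with at least 1 member was 95.8% as deposited and 89.8% at 20000 UMIs per cell. No member's called value changed sign. The cause of these changes was not tested. Few UMIs limit Fosb, Arc, Npas4 and Nr4a1 most.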
